A study of Homo sapiens with 16 samples.

Results

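The SLC25 family, the largest family of solute carriers, was followed through a SLAM-seq chase in THP-1, a monocytic line from a human leukaemia. Members were the genes whose symbol is SLC25A followed by a number and whose abundance in the deposited table was at least 1 CPM (reads scaled to the size of the library). Of 48 genes with such a symbol, 37 met the CPM minimum and 11 did not, out of 16241 genes tested and 60564 listed. The members just inside it were SLC25A4 and SLC25A48 (CPM 1.90 and 1.93), and the nearest gene outside it was SLC25A15 (CPM 0.899), the ornithine carrier. All 37 members entered the tests, because each also had a rate above 0 in at least 1 library. The label holds for nearly all members, but SLC25A17 is known to sit in the peroxisomal membrane and SLC25A46 in the outer mitochondrial membrane.

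SLC25 proteins carry small molecules across the inner mitochondrial membrane, which is otherwise tight to nucleotides, phosphate, organic acids, amino acids and cofactors. They are encoded in the nucleus, made on cytosolic ribosomes and inserted into the membrane by the TOM and TIM22 complexes. ALKBH5 removes the m6A methyl mark from RNA, and this mark is known to influence mRNA decay.

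THP-1 cells with an ALKBH5 knockdown (A5-KD) were set against control cells that the labels call wild type. Both were given 100 µM 4-thiouridine (4sU) for 1 h, washed, and chased in 10 mM uridine for 0, 1.5, 4.5 or 7.5 h. Each of the 8 groups held 2 libraries of polyadenylated RNA, 16 in all, and the labels do not say whether replicates were separate cultures. The p-values may therefore reflect technical spread alone. How the knockdown was made, and whether 1 clone was used, is not given in the sources used here.

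SLAM-seq reads 4sU as T-to-C conversions. The deposited value, read here as the conversion rate (converted T bases as a share of all sequenced T bases of a gene), falls when labelled RNA decays and also when new, unlabelled RNA dilutes it. It is a share, so it holds no information on abundance. The depth behind a rate is unknown and unlabelled cells were not analysed here, so a rate of 0 is only listed at 0. Across all tested genes the median rate per library was 0.532% to 1.19% in A5-KD and 0.250% to 0.556% in control, and 2.39% to 5.97% of genes in A5-KD libraries and 4.94% to 12.9% in control libraries were listed at 0. ALKBH5 itself had 3.31% and 2.46% in A5-KD at 0 h, against 0.812% and 0.386% in control, which as rates do not check the knockdown. Of 10 myeloid markers 9 reached CPM 1 (MPO did not, at 0.185), with LYZ at 1276 and FCER1G at 1425. T cell and fibroblast markers did not reach it (0 of 4 and 0 of 3), and 1 of 4 epithelial markers did (CDH1, 2.88).

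Over the whole chase the carrier mRNAs had higher conversion rates in A5-KD than in control, by about as much as other genes. Over the 37 members the mean of the library medians was 1.35% ± 0.0558 in A5-KD and 0.560% ± 0.0641 in control at 0 h (SD, n = 2 libraries each). At 1.5 h it was 1.04% ± 0.230 in A5-KD and 0.465% ± 0.0176 in control, at 4.5 h 0.765% ± 0.0467 in A5-KD and 0.353% ± 0.0509 in control, and at 7.5 h 0.558% ± 0.0337 in A5-KD and 0.240% ± 0.0229 in control. The member medians thus fell in step in both genotypes while staying apart at every time. The genotype effect, A5-KD minus control on the scale log2(rate in % + 0.05) with time as a factor, was above 0 for all 37 members. It passed the threshold (limma adjusted p under 0.05 over all tested genes) upward for 28 members, downward for 0 and in neither direction for 9. Of all tested genes 69.6% passed upward and 0.172% downward, and the median was 1.03 log2 for the members and 1.02 for all genes, so the members' share was near the background. Both A5-KD libraries lay above both control libraries for 28, 31, 29 and 23 of 37 members at 0, 1.5, 4.5 and 7.5 h, where the shares of all tested genes were 71.1%, 74.3%, 68.2% and 58.9%. They lay below for 0, 1, 0 and 1 member at these times (SLC25A22 at 1.5 h and SLC25A48 at 7.5 h), where the shares were 2.51%, 2.14%, 2.37% and 3.25%.

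At single times fewer members passed. At 0 h 12 were higher in A5-KD (background 35.6%) and at 7.5 h 9 were (33.5%), with none lower at either time (0.179% and 0.308%). The 0 h count was 3 without A5-KD 0 h replicate 2, 4 without A5-KD 0 h replicate 1, 5 without control 0 h replicate 1 and 7 without control 0 h replicate 2. The 7.5 h count was 5 without either A5-KD 7.5 h library. With every library set to a common median log2 rate (centred), which takes 1.05 log2 from every genotype effect, 16 member effects were above 0 and 21 below, and SLC25A39 alone passed, as lower in A5-KD (background 1.45% higher and 4.59% lower). No member passed in the centred comparison at 0 h by limma (background 0.0493% higher and 0.499% lower), and 5 had an unadjusted p under 0.05, as did 9.45% of all tested genes.

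**Figure D1:**
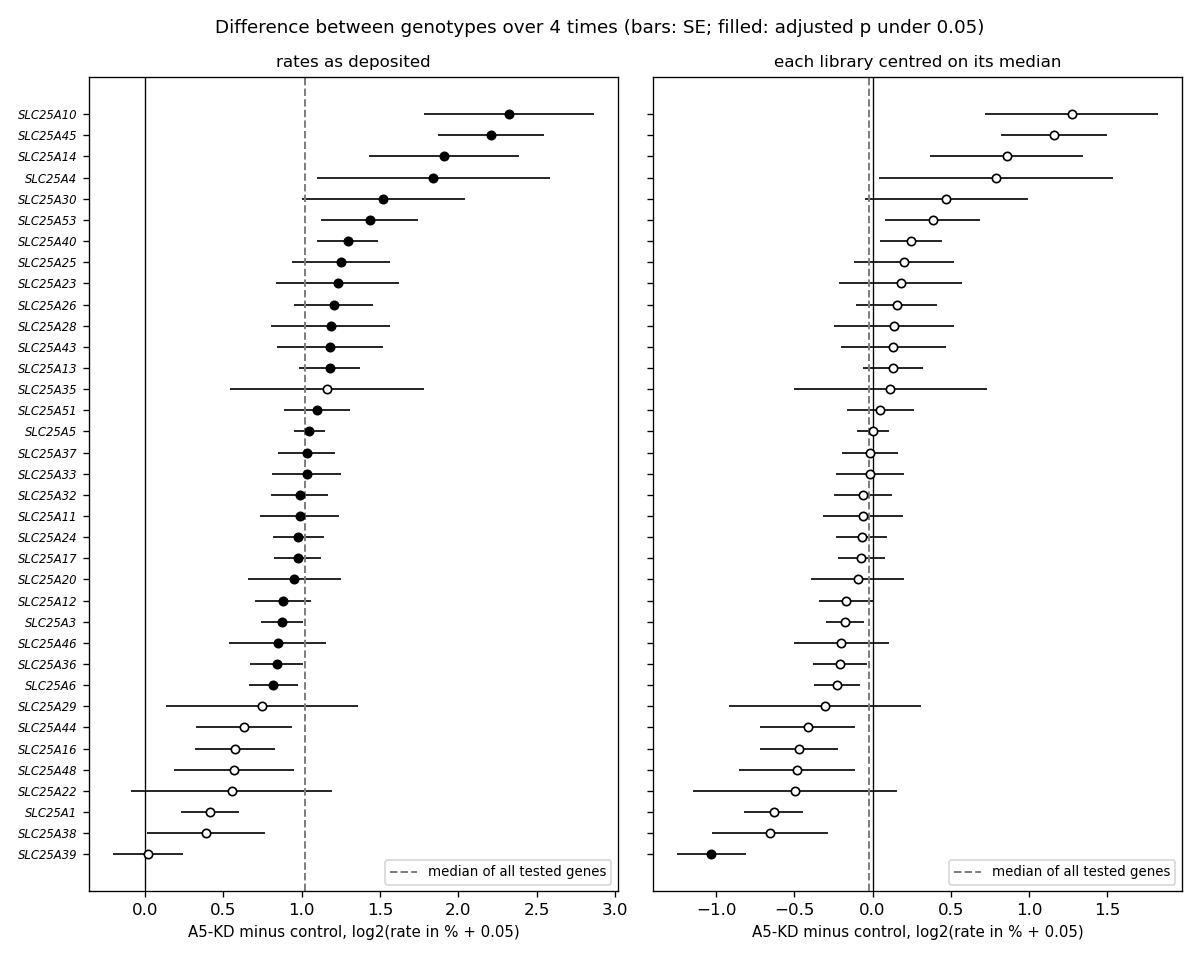
Difference between A5-KD and control over the 4 chase times for 36 of the 37 SLC25 mRNAs, as log2(rate in % + 0.05) with its SE, from the deposited rates (left) and with every library centred on its median (right). All points lie above 0 on the left, scattered about the median of all tested genes (1.02), and on the right SLC25A39 is the single filled point, at −1.03.

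During the chase the rates of 13 members fell in A5-KD and those of 15 fell in control, by the slope of log2(rate in % + 0.05) per hour. SLC25A1 and SLC25A5 rose in A5-KD, and SLC25A5 rose in control. Of all tested genes 37.9% fell and 4.06% rose in A5-KD, and 34.4% fell and 3.45% rose in control, so these counts too were near the background. The median slope of the members was −0.15 in A5-KD and −0.15 in control, against −0.13 and −0.11 for all tested genes. Relative to the library medians, 5 members rose and 2 fell in A5-KD (background 17.7% and 8.62%), and 5 rose and 3 fell in control (17.6% and 9.46%). Without A5-KD 0 h replicate 2 the centred A5-KD slope called 4 members in all. For the slopes not centred, leaving out 1 library gave 14 to 17 members called in either direction in A5-KD and 11 to 16 in control. Both libraries of 7.5 h lay below both of 0 h for 23 members in A5-KD (background 57.5%) and for 20 in control (49.8%). They lay above for 3 members in A5-KD (13.2%) and for 6 in control (11.8%).

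Members that fell steeply in A5-KD mostly did so in control. The A5-KD and control slopes had the same sign for 31 of 37 members, with Pearson's r = 0.70 and Spearman's rho = 0.72 across members (0.77 and 0.74 for the 24 members of CPM 5 or more). These are descriptions across genes, which share their sequence, length and base composition between genotypes. Falling in both were 11 of the 13 that fell in A5-KD and 11 of the 15 that fell in control, among them SLC25A13, SLC25A17, SLC25A24, SLC25A32, SLC25A33, SLC25A36, SLC25A37, SLC25A40, SLC25A44 and SLC25A51. SLC25A38 and SLC25A48 passed in A5-KD, and SLC25A14, SLC25A26, SLC25A29 and SLC25A30 in control, without passing in the other genotype. The share falling in both, the share of equal sign and the correlation were not computed over all tested genes. Whether the members stand out in this agreement is therefore not known. The slope difference itself, A5-KD minus control, was called for 0 of 37 members and for 0 of all tested genes by limma (background 0.0%). Before adjustment 1 member, SLC25A14, had a p under 0.05, as did 7.81% of all tested genes. A time to halve, the inverse of the slope, ran from 3.17 h to 6.79 h (median 4.73 h) among the 12 members that fell in control and had no control library at 0. It is the time for the rate in % + 0.05 to halve, not the rate alone. The 0.05 therefore weighs on it where late rates are low, as for SLC25A40 (0.0745% and 0.112% in control at 7.5 h). For the 3 others that fell, SLC25A14, SLC25A29 and SLC25A30, the pseudocount stands in for rates of 0 and no time is given.

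**Figure D2:**
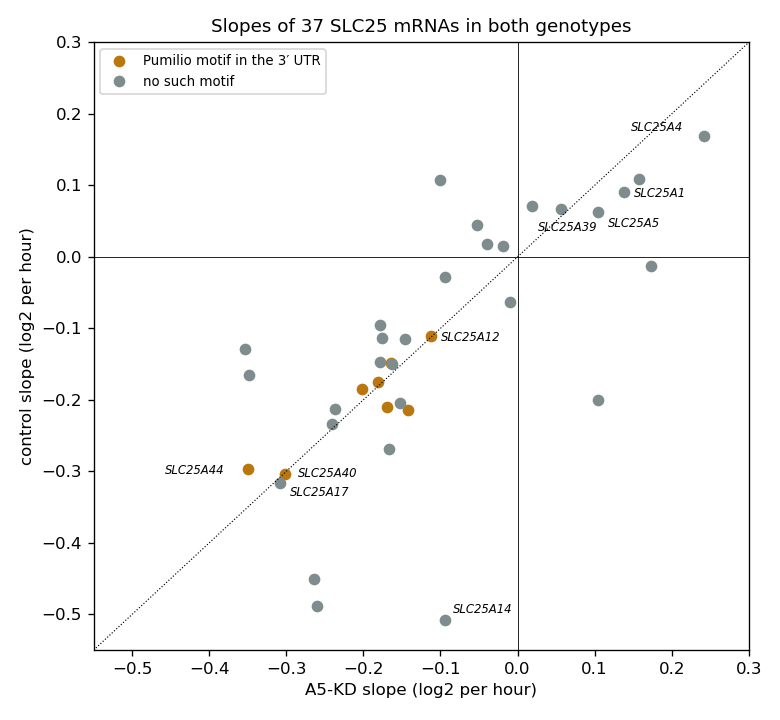
Slope of log2(rate in % + 0.05) per hour of chase in A5-KD (x axis) against control (y axis) for the 37 SLC25 mRNAs, with the line of equality dotted and members with a Pumilio motif in the 3′ UTR in orange. Most points lie near the line, SLC25A14 lies far to its right (A5-KD −0.09, control −0.51), and the 8 orange points lie below 0 on both axes.

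The carriers of ADP, ATP and phosphate supply ATP synthase with its substrates and pass ATP to the cytosol. Of 7 members with a CPM of at least 1, all 7 had a higher rate in A5-KD (69.6% of all tested genes), with a median genotype effect of 1.05 log2. Their median slope was −0.05 per hour in A5-KD and 0.06 in control. In A5-KD 1 rose and 1 fell (4.06% and 37.9% of all tested genes), and in control 1 rose and 1 fell (3.45% and 34.4%).

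SLC25A5 (ANT2, chrX:119468400-119471319, + strand, CPM 166), the ADP/ATP exchanger of proliferating cells, had 0.327% and 0.393% (0 h), 0.428% and 0.481% (1.5 h), 0.511% and 0.604% (4.5 h) and 0.582% and 0.773% (7.5 h) in A5-KD. In control it had 0.133% and 0.234% (0 h), 0.178% and 0.204% (1.5 h), 0.260% and 0.215% (4.5 h) and 0.257% and 0.267% (7.5 h). The lowest A5-KD rate lay above the highest control rate, and in both genotypes the 7.5 h libraries lay above the 0 h libraries. The genotype effect was 1.05 (SE 0.0995, limma adjusted p = 3.46e-07), and the slopes were 0.10 (SE 0.0236, limma adjusted p = 0.00214) in A5-KD and 0.06 (SE 0.0236, limma adjusted p = 0.0458) in control. The control call was fragile, since it ended in 12 of 16 fits that left out 1 library (slopes of 0.04 to 0.09, highest adjusted p = 0.217 by limma), namely without any control library other than 0 h replicate 2, without either A5-KD library of 1.5 h or 4.5 h, and without A5-KD 0 h replicate 2. It also ended at a pseudocount of 0.2 (0.04, limma adjusted p = 0.0807), with no CPM minimum (0.06, adjusted p = 0.0993) and with no variance trend (0.06, adjusted p = 0.0977). Relative to each library's median the slopes were 0.25 (SE 0.0238, limma adjusted p = 9.61e-07) in A5-KD and 0.20 (SE 0.0238, limma adjusted p = 1.63e-05) in control, and these calls held without any single library.

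SLC25A3 (chr12:98593591-98606379, + strand, CPM 219), the phosphate carrier, had 0.595% and 0.396% (0 h), 0.630% and 0.477% (1.5 h), 0.841% and 0.673% (4.5 h) and 0.545% and 0.479% (7.5 h) in A5-KD. Its control rates were 0.214% and 0.255% (0 h), 0.304% and 0.261% (1.5 h), 0.217% and 0.311% (4.5 h) and 0.414% and 0.369% (7.5 h). A5-KD lay above control at every time without overlap, and the A5-KD rates peaked at 4.5 h, whereas the control rates were highest at 7.5 h. The genotype effect was 0.87 (SE 0.134, limma adjusted p = 4.16e-05). Neither slope passed, at 0.02 in A5-KD and 0.07 in control, while the centred slopes of 0.17 and 0.21 both did (limma adjusted p = 0.000642 in A5-KD and 0.000128 in control). The centred A5-KD call ended with no CPM minimum (0.18, limma adjusted p = 0.0670).

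SLC25A6 (ANT3, chrX:1386152-1392724, in the pseudoautosomal region, CPM 39.1) had 0.668% and 0.686% (0 h), 1.02% and 0.829% (1.5 h), 0.857% and 0.906% (4.5 h) and 0.532% and 0.526% (7.5 h) in A5-KD. Control libraries had 0.445% and 0.295% (0 h), 0.406% and 0.357% (1.5 h), 0.391% and 0.317% (4.5 h) and 0.586% and 0.417% (7.5 h). The A5-KD rates were above control at 0, 1.5 and 4.5 h and overlapped it at 7.5 h. Its genotype effect was 0.82 (SE 0.157, limma adjusted p = 0.000316), the smallest that passed among the members. The centred slopes were 0.10 (SE 0.0344, limma adjusted p = 0.0455) in A5-KD and 0.18 (SE 0.0344, limma adjusted p = 0.00102) in control, of which the A5-KD call ended in 8 of 16 fits that left out 1 library (without control 1.5 h replicate 1 or 2, control 4.5 h replicate 1, A5-KD 0 h replicate 1 or 2, A5-KD 1.5 h replicate 2, or A5-KD 4.5 h replicate 1 or 2; slopes of 0.08 to 0.12). It also ended at a pseudocount of 0.01, with no CPM minimum and with no variance trend (limma adjusted p = 0.0564, 0.419 and 0.0597). Processed copies of these genes share sequence with them: the table held 9 annotated pseudogenes of SLC25A5 (summed CPM 2.14), 6 of SLC25A6 (0.212) and 2 of SLC25A3 (0.450), and how shared reads were divided is not given. None of these reached CPM 1, whereas 1 pseudogene each of SLC25A24 and SLC25A20 did. The 2 pseudogenes of SLC25A24 had a summed CPM of 3.54, against 29.7 for the gene.

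SLC25A24, an ATP-Mg/phosphate carrier gated by calcium, behaved otherwise. Its A5-KD rates were 1.67% and 1.89% (0 h), 1.50% and 1.33% (1.5 h), 0.859% and 0.748% (4.5 h) and 0.686% and 0.540% (7.5 h). Its control rates were 0.997% and 0.808% (0 h), 0.553% and 0.561% (1.5 h), 0.516% and 0.455% (4.5 h) and 0.454% and 0.156% (7.5 h). The rates fell at each later time in both genotypes, and A5-KD stayed above control throughout. The slopes were −0.20 (SE 0.0398, limma adjusted p = 0.000736) in A5-KD and −0.18 (SE 0.0398, limma adjusted p = 0.00171) in control. Its relatives differed from it: SLC25A25 had slopes of −0.18 in A5-KD and −0.09 in control that did not pass, and SLC25A23 had −0.10 and 0.11, likewise not past the threshold.

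SLC25A23 had 0.577% and 0.387% (0 h), 0.989% and 0.572% (1.5 h), 0.627% and 0.170% (4.5 h) and 0.666% and 0.167% (7.5 h) in A5-KD. Control libraries had 0.0166% and 0.0491% (0 h), 0.239% and 0.339% (1.5 h), 0.297% and 0.499% (4.5 h) and 0.0762% and 0.201% (7.5 h). The control rates were lowest at 0 h, both under 0.05%, and the groups overlapped at 4.5 and 7.5 h. The genotype effect was 1.23 (SE 0.393, limma adjusted p = 0.0120) over the chase and 2.69 (SE 0.655, limma adjusted p = 0.00887) at 0 h, where the call ended without control 0 h replicate 1 (2.40, limma adjusted p = 0.0591) or A5-KD 0 h replicate 1 (2.43, adjusted p = 0.0631). SLC25A4 (ANT1), the muscle and heart form, had the lowest CPM of the members (1.90), with rates of 0% to 3.15% in A5-KD and 0% to 0.926% in control. Its genotype effect was 1.84 (SE 0.742, limma adjusted p = 0.0379), and the call ended in 9 of 16 fits that left out 1 library (1.42 to 2.20): without either control 0 h library, replicate 2 of control 1.5, 4.5 or 7.5 h, replicate 2 of A5-KD 0 or 4.5 h, or replicate 1 of A5-KD 1.5 or 7.5 h. It also ended with no CPM minimum (limma adjusted p = 0.0665).

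**Figure D3:**
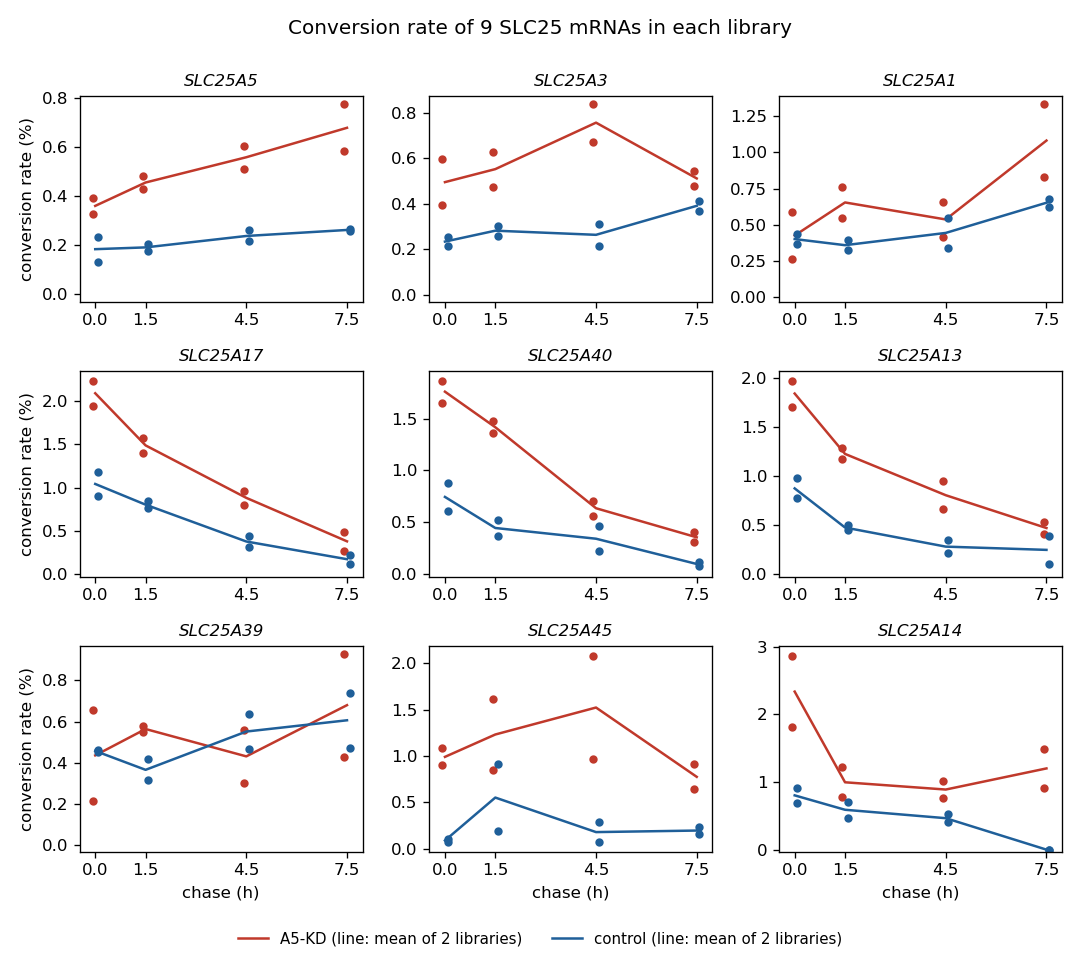
Conversion rate in each library (points) and mean of 2 libraries (lines) over the chase for 9 SLC25 mRNAs, A5-KD in red and control in blue; the y axes differ. The top row shows rates that did not fall, the middle row rates that fell in both genotypes, and the bottom row SLC25A39, where the genotypes overlapped at 0, 4.5 and 7.5 h, SLC25A45 and SLC25A14, which was listed at 0 in both control libraries of 7.5 h.

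Among carriers of citrate, dicarboxylates and the malate-aspartate shuttle, which move reducing power and carbon across the membrane, 4 of 5 tested members had higher rates in A5-KD (69.6% of all tested genes). SLC25A1 (chr22:19175575-19178830, − strand, CPM 28.1), which exports citrate for fatty acid and sterol synthesis, did not pass. It had 0.266% and 0.588% (0 h), 0.760% and 0.550% (1.5 h), 0.418% and 0.656% (4.5 h) and 1.33% and 0.830% (7.5 h) in A5-KD. In control it had 0.434% and 0.370% (0 h), 0.323% and 0.396% (1.5 h), 0.546% and 0.343% (4.5 h) and 0.625% and 0.680% (7.5 h). The groups overlapped at 0 and 4.5 h, and the highest rates of either genotype came at 7.5 h. The genotype effect was 0.42 (SE 0.185, limma adjusted p = 0.0573), and it passed in 4 of 16 fits that left out 1 library: control 0 h replicate 1, control 4.5 h replicate 1, A5-KD 0 h replicate 1 or A5-KD 4.5 h replicate 1 (0.47 to 0.55). It also passed at a pseudocount of 0.2 (0.34, limma adjusted p = 0.0456) and at a CPM minimum of 5 (0.42, adjusted p = 0.0467). The slope was 0.14 (SE 0.0476, limma adjusted p = 0.0286) in A5-KD, a call that ended without A5-KD 0 h replicate 1 (0.09, limma adjusted p = 0.149) or A5-KD 7.5 h replicate 1 (0.09, adjusted p = 0.219) or with no CPM minimum (0.14, adjusted p = 0.0602), and 0.09 (SE 0.0476, limma adjusted p = 0.148) in control. Its centred genotype effect was −0.63 (SE 0.188, limma adjusted p = 0.0625), and passed at a pseudocount of 0.2 (−0.50, limma adjusted p = 0.0454), with no CPM minimum (−1.32, adjusted p = 0.00333), at a CPM minimum of 5 (−0.64, adjusted p = 0.0446) and without A5-KD 7.5 h replicate 1 (−0.72, adjusted p = 0.0376). Centred, both slopes passed, at 0.29 in A5-KD and 0.23 in control, with or without any single library.

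SLC25A12 (aralar) and SLC25A13 (citrin), the calcium-gated aspartate-glutamate carriers of the shuttle, are close relatives. SLC25A13 had 1.71% and 1.97% (0 h), 1.28% and 1.17% (1.5 h), 0.943% and 0.661% (4.5 h) and 0.533% and 0.401% (7.5 h) in A5-KD. Its control rates were 0.770% and 0.973% (0 h), 0.450% and 0.494% (1.5 h), 0.345% and 0.209% (4.5 h) and 0.387% and 0.101% (7.5 h). A5-KD lay above control at all times and both fell throughout, with slopes of −0.24 (SE 0.0496, limma adjusted p = 0.00104) in A5-KD and −0.23 (SE 0.0496, limma adjusted p = 0.00155) in control. SLC25A12 had 0.604% and 0.999% (0 h), 0.602% and 0.637% (1.5 h), 0.457% and 0.441% (4.5 h) and 0.431% and 0.392% (7.5 h) in A5-KD. In control libraries it had 0.391% and 0.450% (0 h), 0.322% and 0.333% (1.5 h), 0.0921% and 0.296% (4.5 h) and 0.324% and 0.162% (7.5 h). Its rates started lower than those of SLC25A13 in both genotypes, and its slopes of −0.11 in A5-KD and −0.11 in control did not pass (limma adjusted p = 0.0678 in A5-KD and 0.0771 in control). The genotype effect was 0.88 log2 for SLC25A12 and 1.18 for SLC25A13.

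SLC25A11, the oxoglutarate-malate exchanger of the same shuttle, had a genotype effect of 0.99 (SE 0.254, limma adjusted p = 0.00309) and slopes of −0.02 in A5-KD and 0.02 in control that did not pass. SLC25A10, the dicarboxylate carrier, had rates of 0.326% to 3.36% in A5-KD and 0% to 0.773% in control, where both 0 h libraries and 1 of the 7.5 h libraries were listed at 0. Its fitted genotype effect was 2.32 (SE 0.542, limma adjusted p = 0.00150), a size that depends on the pseudocount because of those zeros.

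The carriers of nucleotides, cofactors, glutathione and S-adenosylmethionine held most of the rates that fell. Of 10 tested members 8 were higher in A5-KD (69.6% of all tested genes). The rates of 7 fell in A5-KD (37.9% of all) and those of 8 fell in control (34.4% of all), with median slopes of −0.17 and −0.19. After centring, 2 of the 10 fell in each genotype, SLC25A17 and SLC25A40 (8.62% of all in A5-KD and 9.46% in control), and 1 rose, SLC25A39 (17.7% and 17.6%).

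SLC25A17 (chr22:40769630-40819399, − strand, CPM 18.9), the peroxisomal carrier of CoA, FAD and NAD, had 1.94% and 2.24% (0 h), 1.57% and 1.40% (1.5 h), 0.801% and 0.961% (4.5 h) and 0.488% and 0.269% (7.5 h) in A5-KD. Its control rates were 1.18% and 0.903% (0 h), 0.759% and 0.845% (1.5 h), 0.316% and 0.438% (4.5 h) and 0.120% and 0.224% (7.5 h). Rates fell at every later time in both genotypes, and A5-KD stayed above control without overlap. The slopes were −0.31 (SE 0.0369, limma adjusted p = 9.03e-06) in A5-KD and −0.32 (SE 0.0369, limma adjusted p = 9.50e-06) in control, and their difference was 0.01 (SE 0.0522, limma adjusted p = 0.984). Centred, the slopes were −0.16 in A5-KD, a call that ended without A5-KD 7.5 h replicate 2 (−0.11, limma adjusted p = 0.0595), and −0.18 in control. With no CPM minimum, which changes the medians used, neither passed (−0.15 in A5-KD, limma adjusted p = 0.147; −0.05 in control, adjusted p = 0.611).

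SLC25A39 and SLC25A40 are paralogous carriers that bring glutathione into mitochondria. SLC25A40 (chr7:87833568-87876357, − strand, CPM 7.62) had 1.87% and 1.65% (0 h), 1.36% and 1.48% (1.5 h), 0.704% and 0.562% (4.5 h) and 0.302% and 0.401% (7.5 h) in A5-KD. In the control libraries it had 0.880% and 0.605% (0 h), 0.516% and 0.367% (1.5 h), 0.459% and 0.216% (4.5 h) and 0.0745% and 0.112% (7.5 h). It fell over the chase in both genotypes, with A5-KD above control at every time. The genotype effect was 1.29 (SE 0.195, limma adjusted p = 3.55e-05) and the slopes were −0.30 (SE 0.0476, limma adjusted p = 0.000112) in A5-KD and −0.30 (SE 0.0476, limma adjusted p = 0.000128) in control. Its centred slopes of −0.15 in A5-KD and −0.17 in control also passed, but each rested on single libraries. The A5-KD call ended without A5-KD 0 h replicate 1 (−0.15, limma adjusted p = 0.0883) or 2 (−0.16, adjusted p = 0.0651), A5-KD 1.5 h replicate 2 (−0.15, adjusted p = 0.0532) or A5-KD 7.5 h replicate 1 (−0.14, adjusted p = 0.119). The control call ended without control 0 h replicate 1 (−0.15, limma adjusted p = 0.0714) or control 7.5 h replicate 1 (−0.13, adjusted p = 0.106) or 2 (−0.17, adjusted p = 0.0512). With no CPM minimum neither centred slope passed (−0.14 in A5-KD, limma adjusted p = 0.272; −0.03 in control, adjusted p = 0.784).

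SLC25A39 (chr17:44319625-44324870, − strand, CPM 58.9) had 0.656% and 0.218% (0 h), 0.550% and 0.579% (1.5 h), 0.302% and 0.562% (4.5 h) and 0.431% and 0.930% (7.5 h) in A5-KD. In control it had 0.452% and 0.465% (0 h), 0.418% and 0.316% (1.5 h), 0.636% and 0.469% (4.5 h) and 0.475% and 0.739% (7.5 h). The genotypes overlapped at 0, 4.5 and 7.5 h, and neither fell over the chase. Its genotype effect was 0.02 (SE 0.222, limma adjusted p = 0.943), and it turned negative in 7 of 16 fits that left out 1 library (−0.086 to 0.17 over all 16). Against the common shift it was −1.03 (SE 0.220, limma adjusted p = 0.0115), a call that held in every fit that left out 1 library (−1.14 to −0.88). The slopes of 0.06 in A5-KD and 0.07 in control did not pass. Centred, both passed at 0.21 in A5-KD and 0.20 in control, but the A5-KD call ended without A5-KD 0 h replicate 2 (0.15, limma adjusted p = 0.0504) or 7.5 h replicate 2 (0.14, adjusted p = 0.0876) or with no CPM minimum (0.21, adjusted p = 0.0603), and the control call without control 7.5 h replicate 2 (0.18, adjusted p = 0.0523).

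SLC25A36 (chr3:140941830-140980961, + strand, CPM 75.1), a carrier of pyrimidine nucleotides, had 2.05% and 2.04% (0 h), 1.71% and 1.40% (1.5 h), 1.42% and 0.966% (4.5 h) and 0.933% and 0.661% (7.5 h) in A5-KD. Its rates in control were 1.36% and 1.08% (0 h), 0.942% and 0.808% (1.5 h), 0.592% and 0.738% (4.5 h) and 0.596% and 0.195% (7.5 h). They fell in both genotypes, with slopes of −0.17 (SE 0.0406, limma adjusted p = 0.00330) in A5-KD and −0.21 (SE 0.0406, limma adjusted p = 0.000760) in control. SLC25A33, the other pyrimidine nucleotide carrier, had slopes of −0.24 in A5-KD and −0.21 in control that passed, and its genotype effect was 1.03 log2, against 0.84 for SLC25A36. SLC25A32, a carrier linked to folate and FAD, had −0.18 in both, of which the control call ended without control 7.5 h replicate 1 (−0.13, limma adjusted p = 0.0546).

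SLC25A51, the NAD carrier, had slopes of −0.16 and −0.15 in A5-KD and control. The A5-KD call ended without A5-KD 0 h replicate 2 (−0.15, limma adjusted p = 0.0621) or A5-KD 7.5 h replicate 1 (−0.17, adjusted p = 0.0557), and the control call without control 1.5 h replicate 2 (−0.14, adjusted p = 0.0602), control 7.5 h replicate 1 (−0.14, adjusted p = 0.0980) or 7.5 h replicate 2 (−0.09, adjusted p = 0.225). Both ended with no CPM minimum (−0.16 in A5-KD, with a limma adjusted p just above 0.05, and −0.15 in control, adjusted p = 0.0825). For SLC25A26, the S-adenosylmethionine carrier, the slopes were −0.14 in A5-KD and −0.21 in control. The A5-KD slope did not pass, except without A5-KD 7.5 h replicate 2 (−0.23, limma adjusted p = 0.00869), and the control call ended without control 7.5 h replicate 2 (−0.17, adjusted p = 0.0828). SLC25A16 passed in no comparison made from the deposited rates, with a genotype effect of 0.58 log2 (limma adjusted p = 0.0557).

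The mitoferrins import iron for haem and iron-sulphur clusters, and both were higher in A5-KD (69.6% of all tested genes). SLC25A37 (mitoferrin 1, chromosome 8, CPM 44.3) had 1.32% and 1.65% (0 h), 1.46% and 1.10% (1.5 h), 1.39% and 1.08% (4.5 h) and 0.604% and 0.504% (7.5 h) in A5-KD. The control libraries had 0.585% and 0.853% (0 h), 0.614% and 0.591% (1.5 h), 0.521% and 0.416% (4.5 h) and 0.155% and 0.529% (7.5 h). The rates were lowest at 7.5 h in A5-KD, where the second control library overlapped A5-KD. Its slopes were −0.16 (SE 0.0465, limma adjusted p = 0.00974) in A5-KD and −0.15 (SE 0.0465, limma adjusted p = 0.0194) in control. The A5-KD call ended without A5-KD 7.5 h replicate 2 (−0.13, limma adjusted p = 0.0779), and the control call without control 0 h replicate 2 (−0.13, adjusted p = 0.0696) or control 7.5 h replicate 1 (−0.07, adjusted p = 0.242).

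SLC25A28 (mitoferrin 2, CPM 6.53) had 1.94% and 1.88% (0 h), 1.46% and 0.804% (1.5 h), 0.218% and 0.990% (4.5 h) and 0.807% and 0.822% (7.5 h) in A5-KD. Rates in control were 0.633% and 1.28% (0 h), 0.638% and 0.652% (1.5 h), 0.241% and 0.0932% (4.5 h) and 0.0608% and 0.661% (7.5 h). The 2 control libraries of 7.5 h lay far apart, and A5-KD overlapped control at 4.5 h. Its genotype effect was 1.19 (SE 0.379, limma adjusted p = 0.0119), close to the 1.03 log2 of SLC25A37. The slopes of −0.17 in A5-KD and −0.27 in control did not pass, and the control slope passed without control 7.5 h replicate 2 (−0.45, limma adjusted p = 0.00234) or A5-KD 4.5 h replicate 1 (−0.27, adjusted p = 0.0321), and at a CPM minimum of 5 (−0.27, adjusted p = 0.0426).

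Amino acid and carnitine carriers were the group with the fewest calls between genotypes. All 5 tested members were of low CPM, from 3.10 (SLC25A22) to 3.76 (SLC25A20). Of the 24 SLC25 members of CPM 5 or more, 21 passed as higher in A5-KD. Below CPM 5, SLC25A4, SLC25A10, SLC25A14, SLC25A25, SLC25A30 and SLC25A53 of other roles passed too, whereas SLC25A16 and SLC25A48 did not. Whether role or low CPM goes with the few calls was not tested. Of 5 tested members 1 passed as higher in A5-KD (69.6% of all tested genes), SLC25A20, the carnitine-acylcarnitine exchanger of fatty acid oxidation, and the group's median genotype effect was 0.63 log2. SLC25A20 had 0.821% and 1.16% (0 h), 0.738% and 0.532% (1.5 h), 0.807% and 0.908% (4.5 h) and 0.460% and 0.477% (7.5 h) in A5-KD. Its control rates were 0.168% and 0.466% (0 h), 0.363% and 0.558% (1.5 h), 0.513% and 0.273% (4.5 h) and 0.148% and 0.474% (7.5 h). The groups were apart at 0 and 4.5 h and overlapped at 1.5 and 7.5 h. Its genotype effect was 0.95 (SE 0.296, limma adjusted p = 0.01001), and its slopes did not pass. An annotated pseudogene of SLC25A20 had a CPM of 1.19, against 3.76 for the gene.

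SLC25A44, a carrier of branched-chain amino acids, had 1.69% and 1.72% (0 h), 1.37% and 1.58% (1.5 h), 0.892% and 0.380% (4.5 h) and 0.195% and 0.340% (7.5 h) in A5-KD. In control the rates were 1.14% and 0.951% (0 h), 0.678% and 1.14% (1.5 h), 0.230% and 0.341% (4.5 h) and 0.482% and 0.0868% (7.5 h). They fell in both genotypes, and A5-KD overlapped control at 7.5 h. The slopes were −0.35 (SE 0.0745, limma adjusted p = 0.00136) in A5-KD and −0.30 (SE 0.0745, limma adjusted p = 0.00513) in control, of which the control call ended without control 7.5 h replicate 2 (−0.22, limma adjusted p = 0.0523). SLC25A38, known for supplying glycine to haem synthesis, had a slope of −0.35 (SE 0.0829, limma adjusted p = 0.00272) in A5-KD and −0.13 (SE 0.0829, limma adjusted p = 0.241) in control. SLC25A29, a carrier of basic amino acids, had −0.26 in A5-KD, which did not pass, and −0.49 in control, a call that ended without control 0 h replicate 1 (−0.41, limma adjusted p = 0.108), control 0 h replicate 2 (−0.43, adjusted p = 0.0935) or control 7.5 h replicate 1 (−0.38, adjusted p = 0.153), or with no CPM minimum (adjusted p = 0.0530). SLC25A22, a glutamate carrier, spread over 0.102% to 1.38% in A5-KD and 0% to 2.36% in control and passed in no comparison made from the deposited rates.

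SLC25A14 and SLC25A30 resemble the uncoupling proteins in sequence, and both were higher in A5-KD (69.6% of all tested genes). SLC25A14 (chrX:130339888-130373361, + strand, CPM 2.91) had 2.86% and 1.81% (0 h), 1.22% and 0.776% (1.5 h), 1.01% and 0.763% (4.5 h) and 0.910% and 1.49% (7.5 h) in A5-KD. In control it had 0.689% and 0.916% (0 h), 0.710% and 0.469% (1.5 h), 0.526% and 0.404% (4.5 h) and 0% and 0% (7.5 h). The A5-KD rates levelled off after 1.5 h, and both control libraries of 7.5 h were listed at 0, so no fold is given there. The genotype effect over the chase was 1.91 (SE 0.476, limma adjusted p = 0.00244), and SLC25A14 was the 1 member that passed in the centred comparison at 7.5 h, as higher in A5-KD (background 0.4%). That call ended without A5-KD 7.5 h replicate 2 (limma adjusted p = 0.0511). The sizes of these effects of SLC25A14 depend on the pseudocount, because of the zeros in control at 7.5 h. Its slope was −0.09 (SE 0.0920, limma adjusted p = 0.441) in A5-KD and −0.51 (SE 0.0920, limma adjusted p = 0.000450) in control, and the difference of 0.41 (SE 0.130) did not pass (limma adjusted p = 0.448). Centred, its control slope was −0.37, a call that ended without control 7.5 h replicate 1 (−0.30, limma adjusted p = 0.0627) or 2 (−0.30, adjusted p = 0.0611), or with no CPM minimum (−0.24, adjusted p = 0.117). SLC25A30 also had control libraries at 0, 1 each at 4.5 and 7.5 h. Its slopes were −0.26 in A5-KD, which did not pass, and −0.45 in control, a call that ended without control 7.5 h replicate 1 (−0.37, limma adjusted p = 0.0725).

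Of the remaining 6 members, 4 were higher in A5-KD (69.6% of all tested genes). SLC25A45 (chr11:65375192-65383701, − strand, CPM 19.1) had 0.900% and 1.08% (0 h), 1.61% and 0.854% (1.5 h), 0.964% and 2.08% (4.5 h) and 0.643% and 0.909% (7.5 h) in A5-KD. Control rates were 0.111% and 0.0692% (0 h), 0.196% and 0.909% (1.5 h), 0.290% and 0.0718% (4.5 h) and 0.158% and 0.236% (7.5 h). They were apart at 0, 4.5 and 7.5 h and overlapped at 1.5 h through control replicate 2. Its genotype effect of 2.21 (SE 0.337, limma adjusted p = 4.00e-05) was the largest among members of CPM 5 or more. Centred, it was 1.16 (SE 0.340, limma adjusted p = 0.0596), and passed without control 1.5 h replicate 2 (1.42, limma adjusted p = 0.00767) or A5-KD 1.5 h replicate 2 (1.32, adjusted p = 0.0367), and at a CPM minimum of 5 (1.15, adjusted p = 0.0456). SLC25A53 and SLC25A43 had genotype effects of 1.44 and 1.18 log2 that passed.

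SLC25A46, an outer membrane protein of mitochondrial fission and lipid supply, had a genotype effect of 0.85 (SE 0.309, limma adjusted p = 0.0236). This call ended without control 4.5 h replicate 1 (0.69, limma adjusted p = 0.0542) or control 7.5 h replicate 2 (0.70, adjusted p = 0.0527). SLC25A48 had 0.181% and 0.230% in A5-KD at 7.5 h, below the 0.449% and 0.365% of control. Its slopes were −0.35 (SE 0.0869, limma adjusted p = 0.00424) in A5-KD and −0.17 (SE 0.0869, limma adjusted p = 0.149) in control. SLC25A35 was listed at 0 in 2 A5-KD and 5 control libraries and passed in no comparison made from the deposited rates. Several members overlap other expressed genes, and whether strand was used in counting is not given: SLC25A10, SLC25A29, SLC25A32 and SLC25A51 share their strand with a gene of CPM 1 or more, and SLC25A5, SLC25A12, SLC25A24, SLC25A26, SLC25A30, SLC25A35, SLC25A40 and SLC25A46 are among those with one on the opposite strand.

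**Figure D4:**
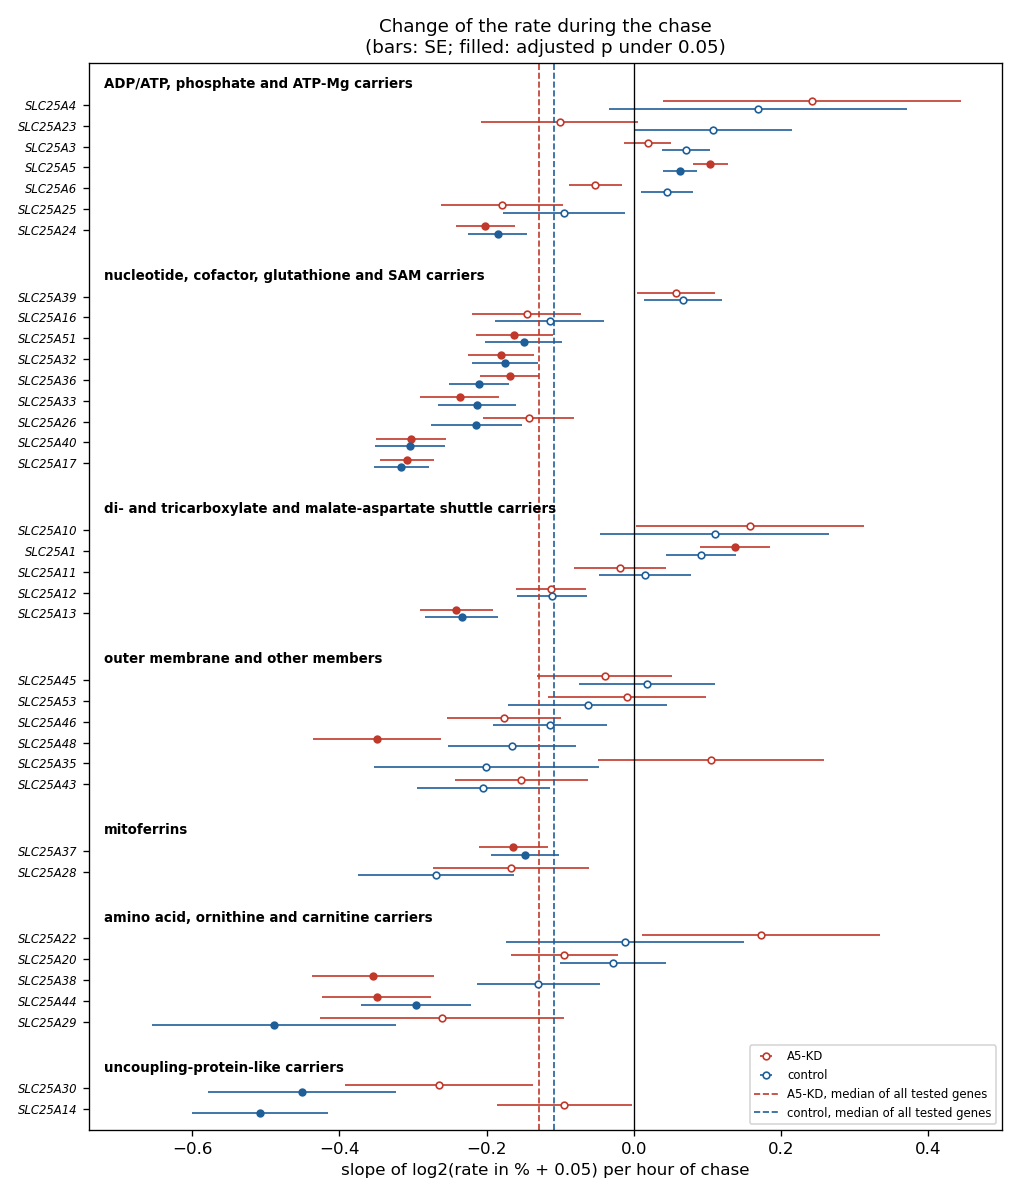
Slope of log2(rate in % + 0.05) per hour of chase with its SE in A5-KD (red) and control (blue) for 36 of the 37 SLC25 mRNAs grouped by role; filled points passed limma's adjusted p of 0.05. Nucleotide and cofactor carriers lie to the left of 0 except SLC25A39, whereas in the ADP/ATP and phosphate group only SLC25A24 is filled on the left; the dashed medians of all genes (−0.13 in A5-KD, −0.11 in control) mark the common fall.

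The 3′ UTRs were searched for TGTANATA (N is any base), the motif bound by Pumilio proteins, which are known to recruit deadenylases. The search ran on the transcript strand of 1 principal GENCODE 29 transcript per gene (hg38). Of 37 members 8 held it (21.62%), against 27.08% of 12247 tested genes with such a transcript. Among 3′ UTRs of 1000 nt or more it was 7 of 20 members (35.0%), against 42.54% of all. The 7 sites of 6 of the 8 holders are shown, to let the matches and their flanks be compared; all 8 holders had negative slopes in both genotypes. Capitals mark the motif.
SLC25A12, chromosome 2, 3′ UTR position 286: acagtgatTGTACATAttgtacat
SLC25A24, chromosome 1, 3′ UTR position 2034: gcagccctTGTAGATAttgtctgt
SLC25A26, chromosome 3, 3′ UTR position 1106: aataacttTGTACATAaaagtaa
SLC25A36, chromosome 3, 3′ UTR position 2385: ataaaagtTGTATATAaagtttgt
SLC25A40, chromosome 7, 3′ UTR position 360: ctgaatgaTGTACATAgtctagaa
SLC25A40, chromosome 7, 3′ UTR position 410: ttaaatcgTGTACATAagtatttc
SLC25A44, chromosome 1, 3′ UTR position 337: agaagagcTGTACATAgagcttgc

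SLC25A40, at −0.30 per hour in both genotypes, held 2 copies within 360 to 410 nt of its stop codon. SLC25A24 carries its copy on chromosome 1 at position 2034 of a 2617 nt 3′ UTR, and SLC25A36 on chromosome 3 at position 2385 of 3480 nt. SLC25A12 had a copy at position 286 of 904 nt and the weakest slopes of the 8. SLC25A26 had its copy at position 1106 of 1120 nt, and SLC25A44 at position 337 of 2365 nt. SLC25A32 and SLC25A37 were the other two holders. Among the 8 holders the median slope was −0.17 in A5-KD and −0.20 in control, all were negative in both genotypes, and 6 passed as falling in A5-KD and 7 in control. Among the 29 other members the medians were −0.10 in A5-KD and −0.11 in control, 21 and 19 were negative, and 7 passed as falling in A5-KD and 8 in control. Of all 16241 tested genes 12206 had a negative slope in A5-KD and 11996 in control, and 37.9% and 34.4% passed as falling. Slopes of all tested genes were not split by this motif. Of the 8 holders 7 had a 3′ UTR of 1000 nt or more, against 13 of the 29 others. Within 3′ UTRs of 1000 nt or more the medians were −0.18 in A5-KD and −0.21 in control for the 7 holders, and −0.15 in A5-KD and −0.11 in control for the 13 others. These are descriptions without a test, of a motif chosen after the values were seen. SLC25A17, with slopes of −0.31 in A5-KD and −0.32 in control, held no copy. The same 3′ UTRs were also searched for TATTTAT, which 15 of 37 members held (40.54%), against 32.37% of all. Among 3′ UTRs under 1000 nt it was 5 of 17 members (29.41%), against 12.68% of all. Among those of 1000 nt or more it was 10 of 20 members (50.0%), against 50.81% of all. SLC25A17 held 2 copies of TATTTAT, and slopes were not compared by that motif.

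GGACT, a form of the sequence at which m6A is commonly placed, was in the 3′ UTR of 22 of 37 members (59.46%), against 57.38% of all. SLC25A39 held 3 copies in its transcript and 0 in its 376 nt 3′ UTR, and SLC25A45 held 5, of which 2 were in the 3′ UTR. SLC25A1 and SLC25A6, also among the 3 smallest genotype effects at CPM 5 or more, held 3 and 2 copies, with 0 in the 3′ UTR. SLC25A23 and SLC25A40, also among the 3 largest, held 3 and 2 copies, with 2 and 0 in the 3′ UTR. A link between copies and the genotype effect was not tested. A match does not show that a site is methylated or bound.

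Other genes of mitochondrial transport were described from a list of 39 (uncoupling and MTCH proteins, pyruvate carrier, sideroflexins, VDACs, the import path of carrier proteins, the calcium uniporter and ABC transporters), of which 36 were tested. Of these 31 were higher in A5-KD and 0 lower (69.6% and 0.172% of all tested genes), with a median genotype effect of 1.21 log2, against 1.03 for the SLC25 members. In A5-KD 1 rose and 15 fell during the chase (4.06% and 37.9% of all tested genes), and in control 1 rose and 7 fell (3.45% and 34.4%). MCU, the pore of the calcium uniporter, fell by 0.29 per hour in A5-KD and by 0.33 in control (limma adjusted p = 2.33e-05 in A5-KD and 8.97e-06 in control). TIMM8B, a small chaperone of the intermembrane space, rose by 0.06 in A5-KD (limma adjusted p = 0.0205) and did not pass in control (0.02). The 1 gene that rose in control was TIMM10 (0.11), also of the import path. MPC1, a subunit of the pyruvate carrier, had slopes of 0.03 in A5-KD and 0.01 in control that did not pass. The genes named from this list were picked by no set rule, and their calls were not checked by leaving out libraries.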

How the data were processed

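The deposited table holds 1 fraction per gene and library for 60564 genes, read here as the T-to-C conversion rate and given in percent; the file headers do not name it. Columns whose names start with C were taken as control by their initial, which leaves those starting with S as A5-KD. Per the file headers the table also holds 1 CPM column, of a library not stated, made by the authors; all 27600 values under 1000 reads were whole reads within 0.1 at a step of 0.0265 CPM, for 37800086 reads, and with 1 column no count test is possible. The column served as filter and variance trend. CASAVA, HISAT2 2.1.0 and hg38 are named in the submitters' processing notes, with no role; the annotation and mismatch filters used are not given in these sources.

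From the rates, limma 3.58.1 (R 4.3.3) was fitted on log2(rate in % + 0.05) over 16241 genes (CPM 1 or more, and some library with a rate above 0). Variances followed a trend in log2(CPM + 0.01), and p-values were adjusted by Benjamini-Hochberg at 0.05. The genotype effect had time as a factor, slopes had an intercept and a slope per genotype, and effects at 0 and 7.5 h came from 8 group means. Each was repeated with libraries centred on their median, which removed 1.05 log2 from the genotype effect and, per hour, −0.15 log2 from the A5-KD slope and −0.14 from the control slope. The scripts were tested on simulated data with normal noise and no floor at 0, which does not cover rates listed at 0. The depth behind each rate is unknown, so no interval is given.

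Coordinates are GENCODE 29 on hg38; all 37 members matched by gene ID. A few items are not reported here; all tests and counts include them. Members, role lists and tests were chosen with earlier results of these data known. Rates in every library are given for the member of highest CPM in each role group, and, among members of CPM 5 or more, for the 3 lowest and 3 highest control slopes, the 3 largest and 3 smallest genotype effects and any centred call; SLC25A5, SLC25A13, SLC25A24 and SLC25A44 were added after their values were seen. Motifs were also chosen after the values were seen. Alternatives were pseudocounts of 0.01 and 0.2, no CPM minimum, a CPM minimum of 5, no variance trend, a replicate block and leaving out each library.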

Additional observations from a re-analysis of the deposited data

How the results depend on the processing

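Counts are of members called in either direction, out of 37, or out of 24 at a CPM minimum of 5. With no CPM minimum 37510 genes entered, library medians were 0% to 0.823%, and centring differed by construction: the centred genotype effect called 11 members (main 1), the centred effect at 7.5 h 14 (main 1), the centred A5-KD slope 2 (main 7) and the effect at 7.5 h 5 (main 9). The centred genotype effect called 2 members at a pseudocount of 0.2 and 3 at a CPM minimum of 5, where the centred effect at 7.5 h called 0 because SLC25A14 is below that minimum. Leaving out 1 library gave 26 to 30 calls of the genotype effect (main 28), 3 to 18 at 0 h (main 12), 5 to 9 at 7.5 h (main 9), 14 to 17 for the A5-KD slope (main 15), 11 to 16 for the control slope (main 16) and 0 to 0 for the slope difference, as for its centred form. For the centred forms it gave 1 to 2 for the genotype effect (2 without control 1.5 h replicate 2, A5-KD 1.5 h replicate 2 or A5-KD 7.5 h replicate 1), 0 to 0 at 0 h, 0 to 1 at 7.5 h (0 without A5-KD 7.5 h replicate 2), 4 to 8 for the A5-KD slope (4 without A5-KD 0 h replicate 2) and 7 to 10 for the control slope. The causes were not tested. Same-numbered replicates did not deviate together (r of −0.0239 to 0.0396 over 28 pairs of groups), and the replicate block gave 28, 11, 8, 15, 16 and 0 calls for the genotype effect, 0 h, 7.5 h, A5-KD slope, control slope and slope difference, and 1, 0, 1, 7, 8 and 0 for the centred forms.

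The genotype effect of SLC25A39 ran from −0.086 to 0.17 over fits without 1 library, and turned to −0.06 without control 1.5 h replicate 2, −0.04 without control 7.5 h replicate 1, −0.086 without A5-KD 0 h replicate 1, −0.03 and −0.04 without A5-KD 1.5 h replicate 1 and 2, −0.02 without A5-KD 4.5 h replicate 2 and −0.08 without A5-KD 7.5 h replicate 2. Over all named values and alternatives, 1874 kept their direction and side of the threshold, 85 lost it, 17 gained it and 7 turned sign. Rates of unknown depth, at 0 in some libraries, limit members of low CPM.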
